A study of Homo sapiens with 8 samples.

Results

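Matrix metalloproteinases (MMPs) and their tissue inhibitors (TIMPs) were examined in HCT116, an established human colorectal carcinoma line. The 10 genes were the rows of the expression table named MMP1, MMP2, MMP7, MMP9, MMP13, MMP14, MMP15, TIMP1, TIMP2 and TIMP3, out of 59641 genes. The series holds 4 control libraries, labelled as having no treatment, and 4 libraries from cells kept for 72 hours with 100 ng/ml of hFGF19, the human form of fibroblast growth factor 19. No culture time is given for the controls, so a difference in culture time cannot be told apart from the treatment. RNA was selected for poly(A) and sequenced from both ends. The labels do not state whether replicate libraries stand for separate cultures, and p-values therefore cover the spread between libraries, which may be technical. The labels name no genotype change, and both groups are the same line. The list was drawn up with results of these data known. MMP7 was chosen by its FPKM values in the hFGF19 and control libraries, and the others as family members seen in the same results. Their values in that comparison are therefore a description, and the fit across all genes is quoted to show what it called, not as support.

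MMPs are zinc-dependent proteases that are made as inactive precursors and cleave matrix and cell-surface proteins once a propeptide is removed. TIMPs bind the active site of MMPs and block it, and TIMP2 also takes part, with the membrane-anchored MMP14, in the activation of the MMP2 precursor. MMP7, matrilysin, is the smallest of the listed proteases and lacks the hemopexin domain of most MMPs. It is made by epithelial cells, among them those of colorectal adenomas and carcinomas. In bulk RNA, fewer cells that express a gene and less RNA of it per cell cannot be told apart.

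Promoter sequences are shown for MMP7, the member whose groups stood apart, and for MMP14 and TIMP1, an abundant protease and an abundant inhibitor. They come from RefSeq on GRCh38.p14, in which 5 of the 10 members had an entry (MMP7, MMP14, MMP15, TIMP1 and TIMP3). The 250 bases before the start site are printed 5′ to 3′ on the strand of the gene. Capitals mark matches, on either strand, to the TATA box (TATAAA), the AP-1 site (TGANTCA), a TCF/LEF core (CTTTGA), a PEA3 core (AGGAAG) or the GC box (GGGCGG). The windows lie at chr11:102530748-102530997 (minus strand) for MMP7, chr14:22836335-22836584 (plus strand) for MMP14 and chrX:47582186-47582435 (plus strand) for TIMP1.
MMP7: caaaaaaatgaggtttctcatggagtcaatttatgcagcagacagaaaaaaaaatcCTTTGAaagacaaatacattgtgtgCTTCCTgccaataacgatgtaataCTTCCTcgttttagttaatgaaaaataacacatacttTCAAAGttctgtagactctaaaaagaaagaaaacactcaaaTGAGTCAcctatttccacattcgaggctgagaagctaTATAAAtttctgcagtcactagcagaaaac
MMP14: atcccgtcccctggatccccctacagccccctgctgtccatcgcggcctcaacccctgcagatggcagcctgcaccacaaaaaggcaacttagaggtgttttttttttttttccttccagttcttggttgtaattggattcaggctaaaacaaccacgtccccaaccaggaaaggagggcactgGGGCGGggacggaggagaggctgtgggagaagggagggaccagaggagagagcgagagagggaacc
TIMP1: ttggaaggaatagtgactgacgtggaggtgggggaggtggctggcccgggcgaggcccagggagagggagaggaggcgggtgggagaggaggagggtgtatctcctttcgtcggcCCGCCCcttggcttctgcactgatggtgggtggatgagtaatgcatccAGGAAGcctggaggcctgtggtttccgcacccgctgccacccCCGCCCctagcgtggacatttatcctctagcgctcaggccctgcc

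The MMP7 window held a TATA box that begins 30 bases before the start site and an AP-1 site that begins 67 bases before it. It also held 2 TCF/LEF cores, at 194 and 108 bases, and 2 PEA3 cores, at 169 and 145 bases, and no GC box. No motif of the 5 overlapped another there. AP-1 sites are bound by FOS and JUN proteins, TCF/LEF sites by the partners of beta-catenin, and PEA3 sites by ETS factors such as ETV4. The other 4 promoters held GC boxes, which SP1 binds: 1 in MMP14, 5 in MMP15, 2 in TIMP1 and 5 in TIMP3. None of those 4 held the TATA box, AP-1 or TCF/LEF letters, and TIMP1 had 1 PEA3 core. The other secreted proteases of the list, MMP1, MMP2, MMP9 and MMP13, had no entry, so MMP7 was not compared with them. Of 35116 RefSeq promoters, searched over 300 bases that include 50 after the start, 11.5% held the TATA letters, 7.71% the AP-1 site, 12.9% the TCF/LEF core, 33.6% the PEA3 core and 45.0% the GC box. Over the same 300 bases MMP7 had 35.7% G and C, against 55.0% in MMP14, 65.0% in TIMP1 and a median of 58.7% over all promoters. A match of letters is a description and does not show that a factor binds.

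Values are FPKM, fragments scaled to the length of the gene model and to the total of the library, as deposited by the authors. The steps between low values let the whole units behind them be worked out, and the totals were 17121190 to 20752753 per library. These units are called reads here, and whether each is a single read or a read pair is not given. The fit across genes covered the 14100 whose mean reached 1 FPKM, of which 15 changed (14 up, 1 down), with limma's adjusted p under 0.05. Of 10 epithelial markers 8 were above 1 FPKM, with KRT8 at 1488 and EPCAM at 27.9 FPKM in controls, while CLDN7 (0.0514 FPKM) and ESRP1 (0.728 FPKM) were low. Of the marker lists for cells that also make MMPs and TIMPs, 1 of 12 stromal and 3 of 10 myeloid genes were above 1 FPKM. Their summed levels were 21.8 to 29.1 FPKM in controls and 20.5 to 27.2 with hFGF19 for the stromal list, and 9.46 to 12.7 and 9.62 to 13.1 for the myeloid list. The stromal sum was mostly COL1A1 (23.0 FPKM in controls), with DCN at 0.0313 FPKM. The myeloid genes above 1 FPKM were CSF1R (4.66 and 4.14 FPKM in controls and with hFGF19), S100A9 (4.56 and 4.22) and CD14 (0.935 and 1.45), none of which passed, while PTPRC and CD68 were at 0.210 and 0.0103 FPKM in controls. No gene of either list was at 0 in all 8 libraries. Since the RNA protocol in the labels mentions adipose material, adipocyte markers were checked too, and 2 of 10 were above 1 FPKM, with RETN and FABP4 listed at 0 in every library. The summed adipocyte markers, mostly PPARG (41.9 FPKM in controls), were 42.4 to 46.6 FPKM in controls and 43.8 to 48.6 with hFGF19.

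The members spanned more than 3 orders of magnitude, with TIMP2, MMP14, TIMP1 and MMP15 at the top and the secreted gelatinases MMP2 and MMP9 at the bottom. Means over all 8 libraries were 115 FPKM for TIMP2, 105 for MMP14, 92.4 for TIMP1 and 47.2 for MMP15. Then came MMP7 at 4.12, TIMP3 at 2.10, MMP1 at 0.961, MMP13 at 0.254, MMP2 at 0.138 and MMP9 at 0.0621 FPKM. In this order the ranges over the libraries overlapped between TIMP2 and MMP14, between MMP14 and TIMP1, between MMP13 and MMP2, and between MMP2 and MMP9. TIMP3 lay wholly above MMP1, and MMP1 wholly above MMP13. TIMP1 (80.5 to 112 FPKM) lay wholly above MMP15 (39.0 to 53.4 FPKM). MMP15 lay wholly above MMP7, and MMP7 (2.59 to 6.42 FPKM) overlapped TIMP3 (1.60 to 2.78 FPKM) through 2 control libraries. The filter for the fit across genes, a mean of 1 FPKM, kept 6 of the 10 members. TIMP3 was the lowest inside it and MMP1 the highest outside it. Levels per length depend on the length of the gene model, which the deposited values put at 1267 bases for MMP14, 710 for TIMP1, 1172 for MMP7 and 3247 for TIMP2.

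**Figure D1:**
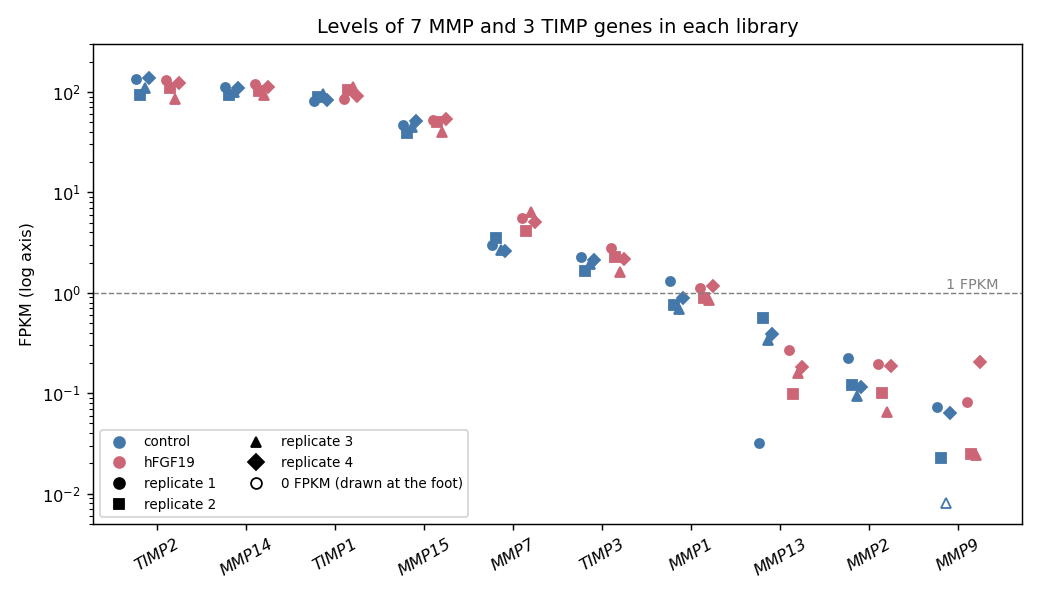
FPKM of the 10 genes on a log axis, 1 point per library, with control in blue, hFGF19 in red and replicate numbers as symbols. TIMP2, MMP14, TIMP1 and MMP15 lie between 39.0 and 136 FPKM in every library, and MMP7 is the gene whose 4 hFGF19 points all lie above its 4 control points.

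MMP7 (ENSG00000137673) had higher levels in all 4 hFGF19 libraries than in any control. It was at 2.98, 3.51, 2.67 and 2.59 FPKM in controls 1 to 4, on 62, 78, 57 and 61 reads. With hFGF19 it was at 5.55, 4.14, 6.42 and 5.08 FPKM, on 135, 83, 134 and 111 reads. The groups did not overlap, though hFGF19 2 was close to control 2, the highest control. The means were 2.94 ± 0.420 and 5.30 ± 0.951 FPKM (SD, n = 4), a ratio of 1.80. Among all genes tested, groups that did not overlap with hFGF19 higher were found in 1.48%. Paired by replicate number, MMP7 differed by 0.72, 0.19, 1.02 and 0.76 on the log2(FPKM + 1) scale for numbers 1 to 4, so that number 2 showed the smallest difference. In controls MMP7 lay at the 20.3rd percentile of the genes tested.

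**Figure D2:**
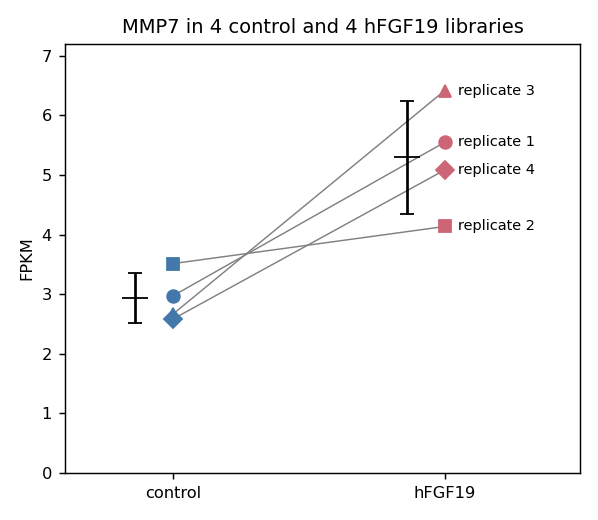
MMP7 in FPKM in 4 control and 4 hFGF19 libraries, with grey lines joining libraries of the same replicate number and bars for mean ± SD. Controls lie between 2.59 and 3.51 FPKM and hFGF19 libraries between 4.14 and 6.42 FPKM.

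In the fit across all genes the log2 change of MMP7 was 0.67 ± 0.125 (SE), with a 95% confidence interval of 0.39 to 0.95, and it did not pass (adjusted p = 0.153, limma). With the replicate number as a block it did not pass either (adjusted p = 0.151, limma). On the reads themselves, weighted by voom, the log2 change was 0.85 ± 0.167 (adjusted p = 0.143, limma with voom). With both the reads and the block, an alternative chosen after seeing the data, MMP7 was called (log2 change 0.85 ± 0.167, adjusted p = 0.0109, limma with voom). In the same fit with 3 pairs, the call was lost without replicate 1, 3 or 4 (adjusted p = 0.161, 0.132 and 0.368) and kept without replicate 2 (adjusted p = 6.41e-05, limma with voom). The log2 changes of these fits were 0.83, 0.71 and 0.81 without replicate 1, 3 and 4, and 1.04 without replicate 2. Within replicate numbers 1 and 4 the log2 change was 0.74 ± 0.132, and it did not pass (adjusted p = 0.271, limma). Within 2 and 3 it was 0.60 ± 0.202 and did not pass either (adjusted p = 0.961, limma).

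The genes whose profile over the 8 libraries was most like that of MMP7 were LCN2, IL6, PTGS2, CPXM1 and SAA1. Likeness was the root mean square difference between centred log2(FPKM + 1) profiles. It includes the difference between the groups by which MMP7 was chosen, so genes that differ between the groups come first by construction. It was 0.139 for LCN2, an iron-siderophore binding protein, 0.153 for the cytokine IL6, 0.156 for PTGS2, the inducible cyclooxygenase, 0.157 for CPXM1, a member of the carboxypeptidase family, and 0.161 for SAA1, an acute-phase protein. The median over all genes was 0.399. Of these 5, CPXM1 did not pass (0.793 ± 0.130 and 1.66 ± 0.0996 FPKM, adjusted p = 0.236, limma). The others passed, with an adjusted p from 0.00199 for IL6 to 0.0430 for SAA1 (limma). After the group means were removed, none of these was among the 5 nearest, which were WDPCP, TAF1, HMBOX1, PLEKHM3 and AC021218.1, at 0.0448 to 0.0569 against a median of 0.197. By limma, the adjusted p was 0.9998 for each of the latter 5.

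The secreted collagenases were low, with MMP1 near 1 FPKM and MMP13 below it in every library. MMP1 (ENSG00000196611), the interstitial collagenase, was at 1.31, 0.750, 0.697 and 0.882 FPKM in controls and 1.13, 0.889, 0.855 and 1.17 with hFGF19. The groups overlapped, on 134 and 149 reads (exact two-sided permutation p = 0.6). MMP13 (ENSG00000137745), another collagenase, was at 0.0316, 0.564, 0.339 and 0.391 FPKM in controls and 0.271, 0.0985, 0.158 and 0.181 with hFGF19. Control 1 was the lowest library of all, on 1 read, and the other 3 controls lay above all hFGF19 libraries. Its reads totalled 45 in controls and 24 with hFGF19, and it did not pass (exact two-sided permutation p = 0.257). The log2 change of FPKM + 1 was -0.16, with -0.28 without control 1 and -0.081 without control 2. With 4 against 4 libraries the smallest p of this test is 0.0286.

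The gelatinases, which cleave denatured collagen and basement membrane collagen, were close to the limit of detection. MMP2 (ENSG00000087245) was at 0.226, 0.121, 0.0947 and 0.114 FPKM in controls and 0.194, 0.101, 0.0645 and 0.185 with hFGF19. It had 18 reads in each group. MMP9 (ENSG00000100985) was at 0.0722, 0.0226, 0 and 0.0638 FPKM in controls and 0.0825, 0.0250, 0.0240 and 0.207 with hFGF19. Of its 15 reads with hFGF19, 9 came from replicate 4, and it had 7 reads in controls. Neither gene passed (exact two-sided permutation p = 1 for MMP2 and 0.4 for MMP9).

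The membrane-anchored proteases were abundant and had overlapping groups. MMP14 (ENSG00000157227), which cleaves collagen at the cell surface and activates the MMP2 precursor, was at 111, 93.2, 98.7 and 110 FPKM in controls. With hFGF19 it was at 121, 102, 92.8 and 112 FPKM. Its log2 change was 0.04 ± 0.0879, with a 95% interval of -0.15 to 0.24 (adjusted p = 0.9998, limma). MMP15 (ENSG00000102996), a related membrane-type protease, was at 47.1, 39.0, 44.4 and 50.8 FPKM in controls and 52.2, 50.7, 39.7 and 53.4 with hFGF19. The lowest library of each group, control 2 and hFGF19 3, differed by less than 1 FPKM. Its log2 change was 0.11 ± 0.104, with an interval of -0.12 to 0.34 (adjusted p = 0.9998, limma).

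Of the inhibitors, TIMP1 and TIMP3 had higher means with hFGF19 and TIMP2 a lower one, and the groups of each overlapped. TIMP1 (ENSG00000102265), a secreted inhibitor of most MMPs, was at 80.5, 88.9, 94.9 and 82.3 FPKM in controls and 85.1, 104, 112 and 91.9 with hFGF19. Within pairs of the same number, hFGF19 was the higher library in 4 of 4, as it was for 6.66% of all genes tested, and the groups overlapped. Its log2 change was 0.17 ± 0.0882, with a 95% interval of -0.02 to 0.37 (adjusted p = 0.9998, limma). With the replicate block the interval was 0.07 to 0.28, and the gene did not pass (adjusted p = 0.479, limma).

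TIMP2 (ENSG00000035862), the inhibitor that binds MMP14 and the MMP2 precursor, was at 133, 93.3, 110 and 136 FPKM in controls. With hFGF19 it was at 133, 110, 84.9 and 122 FPKM, so the groups overlapped. Its log2 change was -0.07 ± 0.148, with an interval of -0.40 to 0.26 (adjusted p = 0.9998, limma). TIMP3 (ENSG00000100234), which stays bound to the matrix and also inhibits ADAM proteases, was at 2.29, 1.64, 1.94 and 2.13 FPKM in controls. With hFGF19 it was at 2.78, 2.26, 1.60 and 2.17 FPKM. The change was 0.09 ± 0.134 on the log2 scale, with an interval of -0.21 to 0.38 (adjusted p = 0.9998, limma). In GENCODE 29, several members overlap another gene on the opposite strand, and since the strand setting is not given, reads of such partners cannot be told apart. SLC12A5-AS1, which overlaps MMP9, was at 0.0541 and 0.120 FPKM in controls and with hFGF19, above MMP9 itself at 0.0397 and 0.0846. WTAPP1, which overlaps MMP1, was at 0.262 FPKM in controls, SYN1, which overlaps TIMP1, at 0.0640, and SYN3, which overlaps TIMP3, at 0.432. TIMP2 overlaps CEP295NL on the same strand (0.557 FPKM in controls).

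**Figure D3:**
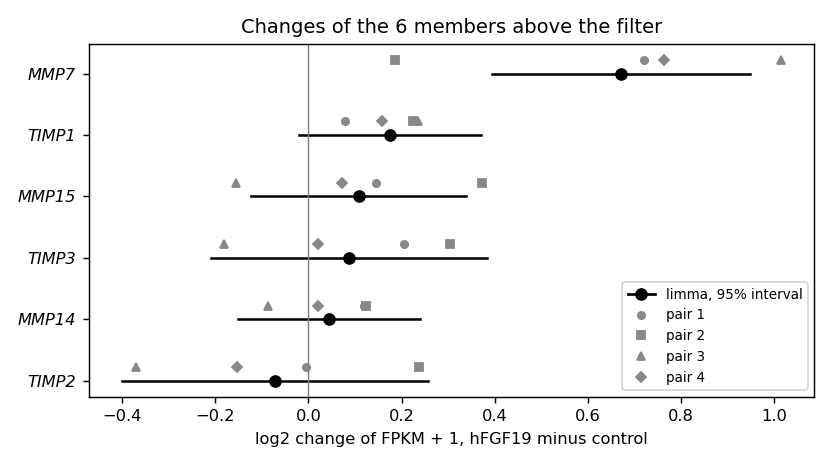
Log2 changes of FPKM + 1, hFGF19 minus control, for the 6 members above the filter, with 95% intervals from limma as black lines and the 4 pairs of the same replicate number as grey symbols. The interval of MMP7 runs from 0.39 to 0.95, and the intervals of the other 5 include 0.

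In all, 0 of the 6 members tested changed by limma at an adjusted p below 0.05, where 0.106% of all genes did. With the replicate block it was 0 of 6, against 0.149% of all genes. By voom it was 0 of 6, against 0.0993%, and by voom with the block 1 of 6, MMP7, against 0.291%. Before adjustment, limma's p was under 0.05 in 1 of 6, again MMP7, and in 4.23% of all genes. The groups did not overlap in 1 of the 6, and in 3.12% of all genes in either direction. The median log2 change was 0.10 over the 6 members and -0.01 over all genes.

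The summed level of the 3 listed inhibitors was above that of the 7 listed proteases in all 8 libraries. The 3 TIMP genes summed to 207 ± 16.3 FPKM in controls and 213 ± 9.90 with hFGF19, and the 7 MMP genes to 153 ± 13.4 and 163 ± 17.6 FPKM (SD, n = 4). The ratio of the sums was 1.33, 1.34, 1.41 and 1.33 in controls and 1.22, 1.37, 1.42 and 1.26 with hFGF19. The ranges overlapped, with hFGF19 1 and 4 below every control. Without TIMP2 and MMP14, the most abundant member of each sum, the ratio was 1.48 to 2.40 over the libraries. MMP14 and MMP15 made up 94.6% to 97.6% of the MMP sum in each library. MMP7 made up 1.94% ± 0.430 of it in controls and 3.31% ± 0.870 with hFGF19. These are shares of mRNA levels per length, not of protein or of protease activity. With all 23 MMP genes of the expression table, the protease sum was 187 ± 16.1 FPKM in controls and 196 ± 20.2 with hFGF19. It came nearest to the TIMP sum in hFGF19 1, at 216 against 221 FPKM.

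Several members differed more between replicate numbers than between the groups. TIMP2 was at 122 to 136 FPKM in the 4 libraries numbered 1 or 4 and at 84.9 to 110 FPKM in the 4 numbered 2 or 3. MMP14 was at 110 to 121 FPKM in the former and 92.8 to 102 FPKM in the latter. The sets did not overlap in these 2 of the 6 members tested, and did not in 22.7% of all genes tested. The mean of numbers 1 and 4 divided by that of 2 and 3 was 1.32 for TIMP2, 1.18 for MMP14, 1.17 for MMP15, 1.26 for TIMP3 and 1.41 for MMP1. TIMP1 went the other way, with a ratio of 0.850 and sets that overlapped, as did MMP13 at 0.754, and MMP7 was at 0.968. On few reads, the ratio was 1.89 for MMP2 and 5.94 for MMP9, whose sets did not overlap. The ratio of TIMP2 to TIMP1 was 1.33 to 1.65 in numbers 1 and 4 and 0.758 to 1.16 in numbers 2 and 3. The sets were read from the data, along the first principal component of these libraries, so these values are a description. What a replicate number stands for is not in the labels, and its part in these levels was not tested.

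**Figure D4:**
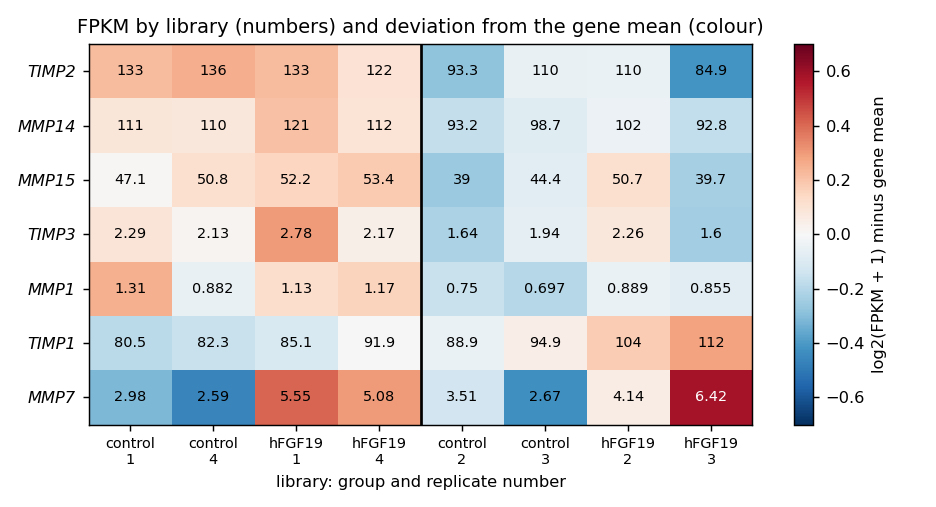
FPKM of 7 members in each library (numbers), with colour for the deviation of log2(FPKM + 1) from the gene's mean, and libraries ordered by replicate number and group. TIMP2 and MMP14 are above their means in all libraries left of the black line (numbers 1 and 4). MMP7 is higher in the hFGF19 libraries than in the controls on both sides of it, with hFGF19 2 (4.14 FPKM) close to the gene's mean.

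Of 16 other MMP genes, 3 were above the filter and 0 changed. They were MMP24, a membrane-type protease, at 25.0 ± 2.65 and 23.4 ± 2.53 FPKM, the stromelysins MMP3, at 5.79 ± 0.513 and 6.93 ± 0.675, and MMP10, at 0.884 ± 0.122 and 1.12 ± 0.421. MMP3 was at 6.35, 5.52, 5.22 and 6.07 FPKM in controls and 7.05, 6.10, 7.74 and 6.84 with hFGF19, so that the groups overlapped through hFGF19 2. Its log2 change was 0.22 ± 0.0891 (adjusted p = 0.9998, limma). MMP17, MMP26 and MMP27 were listed at 0 in all libraries. The 16 genes summed to 31.2 to 37.5 FPKM in controls and 31.0 to 36.4 with hFGF19.

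Of 16 ADAM and ADAMTS proteases, which shed membrane proteins or cleave proteoglycans and procollagens, 9 were tested and 0 changed. The highest were ADAM9 at 135 ± 14.7 and 125 ± 16.6 FPKM, ADAM10 at 74.4 ± 3.38 and 73.8 ± 4.82, ADAM15 at 53.8 ± 2.43 and 56.3 ± 1.71, and ADAM17, the sheddase of TNF, at 23.6 ± 2.42 and 21.7 ± 2.14. Their median log2 change was -0.01, as over all genes.

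Among 16 activators, inhibitors and binding partners of MMPs, 11 were tested and 1 rose, where 0.0993% of all genes did. This was LCN2, whose protein binds MMP9. The list was drawn up with results of these data known, so the count is a description. LCN2 went from 125 ± 11.3 to 206 ± 10.9 FPKM (log2 change 0.72 ± 0.0699, adjusted p = 0.00226, limma). BSG, an inducer of MMPs also known as EMMPRIN, was at 648 ± 16.3 and 659 ± 12.8 FPKM. CD44, a surface receptor that holds MMP7 and MMP9, was at 418 ± 19.9 and 420 ± 24.6 FPKM, and CD151, a tetraspanin, at 220 ± 12.0 and 221 ± 5.46. RECK, a membrane-anchored MMP inhibitor named after its values were seen, was at 2.60, 2.66, 2.96 and 2.52 FPKM in controls and 1.93, 2.15, 1.81 and 2.31 with hFGF19. Its groups did not overlap, as in 3.12% of all genes tested, and it did not pass (log2 change -0.28 ± 0.0997, adjusted p = 0.9998, limma).

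Of 14 genes that encode proteins cleaved by MMP7, 10 were tested and 0 changed. SPP1, osteopontin, was at 1705 ± 147 and 1750 ± 127 FPKM, the integrin gene ITGB4 at 368 ± 24.8 and 335 ± 28.4, the laminin gene LAMB3 at 146 ± 16.1 and 163 ± 20.4, and IGFBP3 at 69.1 ± 6.37 and 63.4 ± 8.81. The median log2 change was -0.02. Of 18 genes for factors known to act on the MMP7 promoter, 17 were tested, 0 changed and LEF1 was the gene below the filter. The highest were FOSL1, an AP-1 subunit, at 232 ± 16.8 and 276 ± 27.6 FPKM, CEBPB at 187 ± 17.1 and 180 ± 29.01, ETS1 at 147 ± 12.1 and 155 ± 13.6, and JUND at 147 ± 12.0 and 139 ± 15.6. FOSL1 had a log2 change of 0.25 ± 0.0797 and groups that overlapped (adjusted p = 0.934, limma). ETV4, named after its values were seen, was at 67.8 ± 3.55 and 75.6 ± 3.69 FPKM. Its groups did not overlap, as in 3.12% of all genes tested, and it did not pass (log2 change 0.16 ± 0.0572, adjusted p = 0.9998, limma). The median of these 17 was -0.02. In each of the 5 lists, 0 or 1 genes passed by limma, where 0.106% of all genes did. LCN2 was also the gene of these lists that passed with the block, by limma and by voom. Before adjustment, limma's p was under 0.05 for 1 of 3 other MMPs, 1 of 9 ADAM and ADAMTS genes, 2 of 11 activators, inhibitors and partners, 0 of 10 substrates and 2 of 17 factors, against 4.23% of all genes tested.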

How the data were processed

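Poly(A)-selected RNA of 8 libraries, 4 control and 4 hFGF19, was analysed from the FPKM values that the authors deposited. The submitters' processing notes list HISAT2 2.0, StringTie 1.3.0 and hg19, with no role for any of them. How reads were counted, with which annotation release, strand setting and filters, is not given in these sources. No genome coordinates of hg19 were used.

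The 14100 genes whose mean reached 1 FPKM were tested on the log2(FPKM + 1) scale by limma 3.58.1 (R 4.3.3), two-sided, with the prior variance following a trend. Benjamini-Hochberg adjustment ran over all genes tested, at a threshold of 0.05. Such fold changes understate the change of low genes. Members below the filter got an exact permutation test, two-sided, on mean FPKM. Whole reads, recovered within 0.02 reads for 99.996% of values above 0, went into voom. Reads without molecular identifiers are not independent molecules. The fit was tested on simulated data.

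The main fit did not pair the libraries by replicate number, and the block on that number was an alternative. Deviations from the group means of same-numbered libraries correlated across genes at 0.107 to 0.302, so every such pair was over 0.1. Other pairs between the groups ranged from -0.449 to 0.436 with a median of -0.17, so some libraries of different number were more alike. Deviations within a group cancel for each gene, so positive values in some pairs go with negative values in others by construction. The labels give no meaning for the numbers. The members, lists and alternatives were chosen with earlier results of these data known. Named genes were the 10 members, up to 4 per list of other genes (called, then most abundant) and the 5 most like MMP7 by each measure. RECK, ETV4, LEF1, genes at 0, single markers and overlapping genes were named outside this rule, after their values were seen.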

Additional observations from a re-analysis of the deposited data

How the results depend on the processing

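MMP7 was called only by voom with the replicate block, with all libraries or without replicate 2, and kept its sign in every fit. Of the members that were not called, 3 changed sign when 1 library was left out: the log2 change ranged from -0.029 to 0.032 for MMP2, from -0.017 to 0.108 for MMP14 and from -0.179 to 0.055 for TIMP2. TIMP2 was also at 0.026 by voom with the replicate block without replicate 3. MMP7 stayed between 0.59 and 0.77 with 1 library left out, 0 of those 8 fits called it, and its adjusted p ranged from 0.106 to 0.565 (limma). The count of 15 genes called was 7 to 13 with 1 library left out, 8 within replicate numbers 1 and 4 and 9 within 2 and 3. It was 21 with the replicate block, 14 by voom, 41 by voom with the block, and 23, 69, 54 and 17 by voom with the block and without replicate 1, 2, 3 and 4. Fewer libraries entered the fits that left some out, and the cause of the larger count by voom with the block was not tested. The count of members called was 0, except for 1 (MMP7) by voom with the replicate block, and 0 to 1 by that fit with 1 number left out. With all genes above 0 tested, 10 genes passed and 0 members. Without TIMP2 and MMP14, the ratio of summed TIMP to summed MMP levels was 1.80 in controls and 1.84 with hFGF19. The count tests planned on recovered reads were not run, since the deposited values are FPKM, and voom was added in their place. Members below the filter had no value under scaling, the block or voom. The values of MMP2, MMP9 and MMP13 rest on 36, 22 and 69 reads over all 8 libraries.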

Other observations

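MMP7 is the first of 9 MMP genes that follow each other on its chromosome with no other protein-coding gene between them in GENCODE 29, in the order MMP7, MMP20, MMP27, MMP8, MMP10, MMP1, MMP3, MMP12 and MMP13. They were read at very different levels, and 3 of the 9 were above the filter. MMP3 was the highest, at 5.79 ± 0.513 FPKM in controls and 6.93 ± 0.675 with hFGF19 (SD, n = 4), and MMP7 the next. MMP10 and MMP1, which lie side by side, were at 0.884 and 0.911 FPKM in controls. The control and hFGF19 means of MMP13, at the other end of the run, were 0.331 and 0.177 FPKM. MMP20, MMP27, MMP8 and MMP12 were at or under 0.0275 FPKM in both groups, and the chromosomal order of the 9 genes was not the order of their levels.

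Of the 20 groups of 4 libraries of the 10 members, 0 held a library beyond the 95% critical value of Dixon's gap-to-range ratio, where chance gives about 1.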
